A study of Mus musculus with 20 samples.

Results

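The 10 genes of fatty acid uptake, binding and activation examined here in mouse liver were *Cd36*, *Slc27a2*, *Slc27a4*, *Fabp1*, *Fabp2*, *Fabp4*, *Fabp5*, *Acsl3*, *Acsl4* and *Acsl5*, chosen by name for their place in this pathway, out of 54532 genes in the count table. The choice was made with earlier results of these data known, so their shares set against all genes are descriptive. All 10 passed the filter on low counts that left 12289 genes. Male C57BL/6 mice that had spent 12 weeks on a high-fat diet (HFD) underwent Roux-en-Y gastric bypass (RYGB), which joins a small stomach pouch to the jejunum, or a sham operation. They were then kept on chow or on HFD for 8 weeks, which gave 2 chow groups, Sham Chow and RYGB Chow, and 2 HFD groups, Sham HFD and RYGB HFD. Each group held 5 mice, with 1 whole-liver library per mouse. All 4 groups therefore share the earlier HFD and had an operation, either RYGB or sham, and the Sham Chow mice are formerly obese animals rather than never-obese controls. Body weight differed between these groups in the study, so in the contrasts with Sham HFD diet or surgery cannot be told apart from body weight.

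Long-chain fatty acids enter hepatocytes partly through the scavenger receptor CD36 and the fatty acid transport proteins of the Slc27a family, some of which also attach coenzyme A. Inside the cell, small fatty acid-binding proteins (FABPs) carry the ligands through the cytosol and to the nucleus, and long-chain acyl-CoA synthetases (Acsl) activate them for oxidation, storage or membrane synthesis. *Fabp1* is the abundant FABP of hepatocytes, *Fabp2* that of the intestinal epithelium, *Fabp4* that of adipocytes, macrophages and capillary endothelium, and *Fabp5* is widely expressed, with skin as a classic site. Several of these genes, *Cd36* and *Fabp1* among them, are known targets of the peroxisome proliferator-activated receptors (PPARs).

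Levels are given as CPM, the counts of a gene scaled to library size and TMM factor, with the SD over 5 mice. Libraries held 14604854 to 22537498 counts assigned to genes (median 19056997), of which the 10 genes took 0.356% to 0.560%. TMM factors ran from 0.916 to 1.13, with RYGB Chow replicate 3 at the upper end. The hepatocyte markers *Alb*, *Ttr*, *Apoa1*, *Cps1*, *Tat*, *Asgr1* and *Serpina1c* were all detected in each group and together reached 66857 to 117726 CPM per mouse. Differences are log2 fold changes of the second group over the first from edgeR's quasi-likelihood test on all tested genes, with the SE and Benjamini-Hochberg adjusted p, and a gene is called changed at an adjusted p under 0.05. The SE was derived as the absolute log2 fold change divided by the square root of the test's F statistic. In bulk liver, fewer cells of a type and less RNA per cell cannot be told apart.

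Of the 10 genes, 5 changed in Sham Chow vs. Sham HFD, where 21.6% of all tested genes were called. *Cd36*, *Fabp2*, *Fabp4* and *Slc27a4* rose, as did 10.9% of all tested genes, and *Fabp5* fell, as did 10.7%. In Sham HFD vs. RYGB HFD 6 of the 10 changed, against 16.4% of all genes. *Fabp5*, *Slc27a2* and *Acsl4* were higher after bypass, as were 8.54% of all tested genes, and *Cd36*, *Fabp2* and *Slc27a4* were lower, as were 7.9%. The members' median absolute log2 fold change was 0.28 in the former contrast, against 0.20 over all tested genes, and 0.40 against 0.18 in the latter. Both contrasts use the same 5 Sham HFD mice, so their values for a gene are not independent of each other. Scaling by library size alone moved the median log2 fold change of all genes from -0.00 to 0.12 in Sham Chow vs. Sham HFD, where the share of calls that were higher went from 50.3% to 80.4%. In Sham HFD vs. RYGB HFD that share went from 52.0% to 26.6%, and for the interaction the positive share went from 49.0% to 20.2%. Every called member kept its direction under this scaling.

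No member changed in Sham Chow vs. RYGB Chow by edgeR, DESeq2 or limma-voom, where edgeR called 0.057% of all genes and DESeq2 0.749%. An unadjusted p under 0.05 was found for 1 member, *Fabp5*, and for 10.8% of all genes. No member changed in RYGB Chow vs. RYGB HFD by edgeR or limma-voom, against 3.65% of all genes; 3 had an unadjusted p under 0.05, against 18.8% of all genes, and DESeq2 called 1, *Slc27a2*, against 6.11%. In Sham Chow vs. RYGB HFD, which the study did not contrast, 1 member changed against 7.67% of all genes, and it was *Fabp4*. The diet effect differed between RYGB and sham mice for 3 members, *Fabp5*, *Cd36* and *Slc27a2*, by the interaction term of the same model, against 5.06% of all genes.

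**Figure D1:**
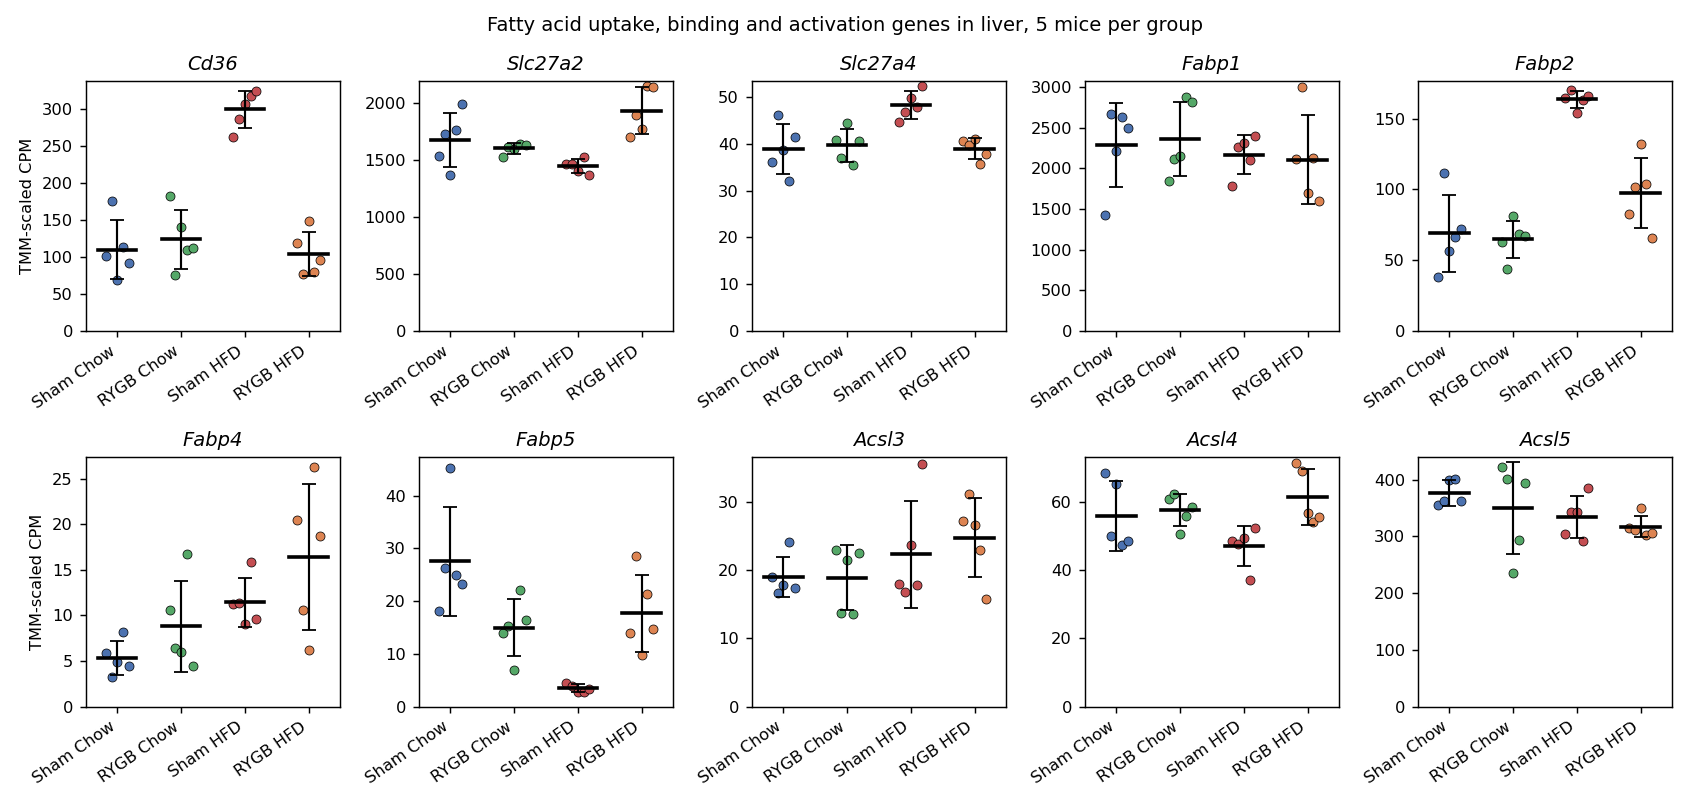
TMM-scaled CPM of the 10 genes in every mouse; points are mice, the horizontal line is the group mean and the bar 1 SD (n = 5), and each axis starts at 0. Sham HFD mice stand above all others for *Cd36* and *Fabp2* and below all others for *Fabp5*, while *Fabp1* overlaps in every pair of groups.

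**Figure D2:**
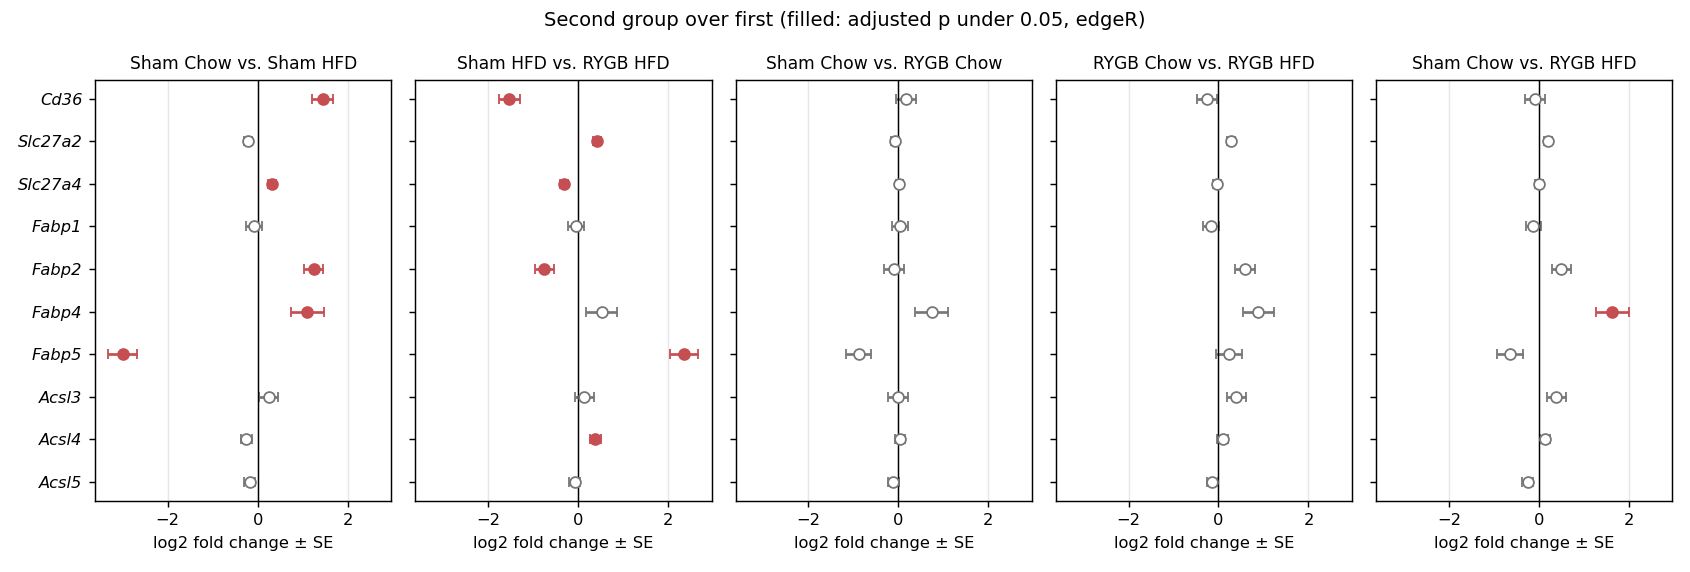
Log2 fold change of each gene with its SE in 5 contrasts, second group over first; filled points passed an adjusted p of 0.05. Called points lie mostly in the contrasts that contain Sham HFD, with *Fabp5* at -3.00 and 2.36 and *Cd36* at 1.45 and -1.53.

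Among the uptake genes, *Cd36* (ENSMUSG00000002944), on the minus strand of chr5:17781690-17888801 in GRCm38, encodes the scavenger receptor that binds long-chain fatty acids at the plasma membrane. In the Sham HFD mice it reached 263, 287, 308, 318 and 325 CPM. The Sham Chow mice had 101, 176, 68.3, 113 and 91.8 CPM, and the RYGB Chow mice 182, 75.9, 141, 109.5 and 112 CPM. In the RYGB HFD mice it stood at 119, 77.4, 149, 79.5 and 95.8 CPM. Every Sham HFD mouse was above every mouse of the other groups, which overlapped one another. The spread was also smallest in Sham HFD, at 299.9 ± 25.3 CPM, against 110.1 ± 40.5 in Sham Chow, 124 ± 39.7 in RYGB Chow and 104 ± 30.0 in RYGB HFD (SD, n = 5).

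*Cd36* rose by 1.45 on the log2 scale (SE 0.23, adjusted p = 2.29e-04, edgeR) from Sham Chow to Sham HFD, or 2.72-fold. After bypass on HFD it was lower than in Sham HFD by a log2 fold change of -1.53 (SE 0.23, adjusted p = 1.49e-04, edgeR). From RYGB Chow to RYGB HFD the value was -0.25 (SE 0.23, adjusted p = 0.603, edgeR), and the interaction of surgery and diet was -1.70 (SE 0.33, adjusted p = 0.00549, edgeR). Leaving out any 1 of the 20 mice kept all 3 calls. Sham Chow vs. RYGB HFD gave -0.08 (SE 0.23, adjusted p = 0.867, edgeR).

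*Slc27a2* (ENSMUSG00000027359, chr2:126552407-126588243, plus strand) encodes fatty acid transport protein 2, which takes up long-chain fatty acids and activates very-long-chain ones. By length-scaled level it came second to *Fabp1* in every group, and it stood at 1673 ± 237 CPM in Sham Chow, 1442 ± 60.3 in Sham HFD, 1599 ± 45.8 in RYGB Chow and 1928 ± 207 in RYGB HFD. The RYGB HFD mice had 1698, 1889, 1768, 2149.5 and 2133 CPM and the Sham HFD mice 1460.2, 1464, 1401, 1519.8 and 1365 CPM. All 5 mice of RYGB HFD exceeded all 5 of Sham HFD and also all 5 of RYGB Chow, whose highest mouse had 1640.0 CPM; groups did not overlap for 5.05% of all tested genes in RYGB Chow vs. RYGB HFD. *Slc27a2* was 0.42 higher in RYGB HFD than in Sham HFD (log2, SE 0.09, adjusted p = 0.00278, edgeR), a 1.34-fold difference.

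From RYGB Chow to RYGB HFD the log2 fold change of *Slc27a2* was 0.27 (SE 0.09, adjusted p = 0.0991, edgeR), and DESeq2 gave 0.27 with an adjusted p of 0.0456. In Sham Chow vs. Sham HFD it was -0.21 (SE 0.09, adjusted p = 0.0900, edgeR), and -0.28 (adjusted p = 0.0286) without Sham Chow replicate 3. The interaction was 0.48 (SE 0.13, adjusted p = 0.0309, edgeR). It was called in 12 of 20 fits that left out 1 mouse, with adjusted p from 0.0138 to 0.0625, and it was not called with scaling by library size alone (0.34, adjusted p = 0.116) or without the filter on low counts (0.48, adjusted p = 0.0698). *Gm26697* overlaps *Slc27a2* on the opposite strand, and the strand setting of the counting is not given in the sources used here.

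*Slc27a4* (ENSMUSG00000059316, chr2:29802634-29817522, plus strand) encodes fatty acid transport protein 4, an acyl-CoA synthetase known from intestine and skin. The Sham HFD mice had 44.7, 46.8, 49.8, 48.0 and 52.5 CPM, and the RYGB HFD mice 40.6, 39.9, 41.0, 35.7 and 37.8 CPM, so that these groups did not overlap. Sham Chow, at 39.0 ± 5.31 CPM, had 1 mouse at 46.2 CPM inside the Sham HFD range, and RYGB Chow averaged 39.7 ± 3.52 CPM. *Slc27a4* rose by 0.31 in Sham Chow vs. Sham HFD (log2, SE 0.09, adjusted p = 0.0129, edgeR) and was lower by -0.31 (log2) in Sham HFD vs. RYGB HFD (SE 0.09, adjusted p = 0.0154, edgeR). The interaction, at -0.34 (SE 0.12, adjusted p = 0.109, edgeR), was not called, but was at -0.48 (adjusted p = 0.0436) with scaling by library size alone and at -0.41 (adjusted p = 0.0364) without Sham Chow replicate 2.

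*Cd36*, *Slc27a4* and *Fabp2* are the members that rose in Sham Chow vs. Sham HFD and were lower in Sham HFD vs. RYGB HFD. *Fabp1*, another known PPAR target, did neither and is shown beside them. The 250 bases before their RefSeq transcription starts (GRCm38.p6) are printed below 5′ to 3′ on the gene's strand; for *Fabp1* the run stops 53 bases short of the start, where the GENCODE exon begins. The *Cd36* gene has 6 GENCODE start sites of coding transcripts, and the RefSeq start used here lies 179 bases from the nearest. Capitals mark a match to the direct repeat AGGTCANAGGTCA, the element that PPAR and its partner RXR are known to bind, read on both strands with at most 2 mismatches over 12 compared bases.
Cd36, chr5:17835897-17836146, minus strand: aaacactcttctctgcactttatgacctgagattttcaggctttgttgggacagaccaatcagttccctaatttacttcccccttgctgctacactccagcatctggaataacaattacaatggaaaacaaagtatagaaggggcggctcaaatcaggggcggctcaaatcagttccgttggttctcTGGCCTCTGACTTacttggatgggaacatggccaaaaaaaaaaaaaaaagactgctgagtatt
Slc27a4, chr2:29802384-29802633, plus strand: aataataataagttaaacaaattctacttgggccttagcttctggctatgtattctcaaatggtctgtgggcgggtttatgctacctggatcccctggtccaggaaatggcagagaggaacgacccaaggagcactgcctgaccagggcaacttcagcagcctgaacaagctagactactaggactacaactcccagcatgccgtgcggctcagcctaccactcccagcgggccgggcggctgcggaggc
Fabp2, chr3:122894822-122895071, plus strand: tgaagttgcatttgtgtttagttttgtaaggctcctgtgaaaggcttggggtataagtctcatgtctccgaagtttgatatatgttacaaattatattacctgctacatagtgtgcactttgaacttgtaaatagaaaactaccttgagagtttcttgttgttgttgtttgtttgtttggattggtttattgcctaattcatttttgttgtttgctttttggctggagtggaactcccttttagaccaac
Fabp1, chr6:71199629-71199826, plus strand: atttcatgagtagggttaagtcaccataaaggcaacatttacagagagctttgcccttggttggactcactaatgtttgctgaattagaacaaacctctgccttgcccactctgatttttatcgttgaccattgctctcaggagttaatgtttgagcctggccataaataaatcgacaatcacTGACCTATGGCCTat

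The match in *Cd36*, at -63 to -51 from the RefSeq start, had 2 mismatches, and that in *Fabp1*, at -67 to -55, had 1. Both were on the strand opposite to the gene. Promoters were at hand for 8 of the 10 members, all 250 bases of each were searched, and in the other 6 of these windows the motif did not occur within the same limit. The window of *Slc27a2* begins inside a GENCODE exon of that gene. Over all 32851 mouse promoters in the table, 3.24% held a match with at most 2 mismatches, 0.484% with at most 1 and 0.0335% with none. The letters alone do not show a binding site.

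Among the binding proteins, *Fabp1* (ENSMUSG00000054422, chr6:71199827-71205023, plus strand), the cytosolic fatty acid carrier of hepatocytes, had the highest length-scaled level of the 10 genes in every group. It stood at 2287 ± 514 CPM in Sham Chow, 2167 ± 243 in Sham HFD, 2358 ± 458 in RYGB Chow and 2107 ± 551 in RYGB HFD. Single mice ranged from 1427 to 2994 CPM, and all neighbouring groups overlapped. Over the 6 contrasts its log2 fold changes lay between -0.16 and 0.04, with SE of 0.18 for a pair of groups, and adjusted p (edgeR) ran from 0.681 to 0.958.

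*Fabp2* (ENSMUSG00000023057, chr3:122895072-122899506, plus strand), the FABP first known from intestinal epithelium, had 165, 170.1, 154, 163 and 166 CPM in the Sham HFD mice. The RYGB HFD mice had 82.8, 102, 132, 104 and 65.7 CPM. The Sham Chow mice had 38.3, 112, 56.4, 66.3 and 71.9 CPM. The lowest Sham HFD mouse was therefore above the highest of every other group, and RYGB Chow, at 64.6 ± 13.4 CPM, overlapped both Sham Chow and RYGB HFD. The enterocyte markers *Vil1*, *Alpi*, *Sis*, *Lct* and *Cdh17* together came to at most 0.414 CPM in any mouse, with *Sis* at 0 throughout.

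*Fabp2* rose by 1.25 in Sham Chow vs. Sham HFD (log2, SE 0.21, adjusted p = 4.09e-04, edgeR), a 2.37-fold change. After bypass on HFD it was lower than in Sham HFD by a log2 fold change of -0.75 (SE 0.21, adjusted p = 0.0184, edgeR), which without RYGB HFD replicate 5 became -0.64 with an adjusted p of 0.0533. The RYGB HFD mean of 97.3 ± 24.9 CPM lay between the chow means and that of Sham HFD, with mice that overlapped both chow groups, and gave uncalled log2 fold changes of 0.59 (SE 0.21, adjusted p = 0.130, edgeR) over RYGB Chow and 0.50 (SE 0.21, adjusted p = 0.153, edgeR) over Sham Chow. Without Sham Chow replicate 2, the mouse at 112 CPM, the value over Sham Chow was 0.74 (adjusted p = 0.0250, edgeR) and the interaction went from -0.66 (adjusted p = 0.214) to -0.90 (adjusted p = 0.0417). *4933405D12Rik* overlaps *Fabp2* on the opposite strand.

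*Fabp5* (ENSMUSG00000027533, chr3:10012548-10016607, plus strand), the epidermal-type FABP, showed the widest differences of the 10 genes. The 5 Sham HFD mice had 4.46, 3.98, 2.83, 2.76 and 3.24 CPM, which rest on 46 to 86 counts. The Sham Chow mice had 18.2, 26.3, 45.2, 24.9 and 23.2 CPM. The RYGB HFD mice had 14.0, 28.6, 9.74, 21.3 and 14.7 CPM, and the RYGB Chow mice 14.0, 15.3, 6.98, 22.2 and 16.4 CPM. All Sham HFD mice were below all 15 others, while the remaining groups overlapped. Sham Chow had the highest mean, 27.6 ± 10.3 CPM, followed by RYGB HFD with 17.7 ± 7.37 and RYGB Chow with 15.0 ± 5.45, against 3.45 ± 0.744 in Sham HFD.

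*Fabp5* fell by 3.00 on the log2 scale from Sham Chow to Sham HFD (SE 0.32, adjusted p = 3.71e-06, edgeR), so that it was 8.00-fold lower. It was 5.12-fold higher in RYGB HFD than in Sham HFD, a log2 fold change of 2.36 (SE 0.32, adjusted p = 4.10e-05, edgeR). From RYGB Chow to RYGB HFD the value was 0.24 (SE 0.29, adjusted p = 0.719, edgeR), and the interaction was 3.24 (SE 0.43, adjusted p = 2.39e-04, edgeR). Each of these 3 calls held in all 20 fits without 1 mouse. In Sham Chow vs. RYGB Chow the value was -0.88 (SE 0.28, adjusted p = 0.268, edgeR); a two-sided exact permutation test of the 5 against 5 mice gave p = 0.0159, or 0.0529 adjusted over 50 such tests.

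*Fabp4* (ENSMUSG00000062515, chr3:10204088-10208576, minus strand) lies near *Fabp5* on the same chromosome and encodes the adipocyte FABP. Sham Chow mice had 5.89, 3.26, 4.86, 8.21 and 4.49 CPM. Sham HFD mice had 11.3, 11.3, 9.04, 15.9 and 9.60 CPM. RYGB HFD mice had 20.5, 10.6, 6.17, 26.3 and 18.7 CPM. The Sham HFD mice were all above the Sham Chow mice, and the RYGB HFD mice spread over both groups and beyond. RYGB Chow, with 4.42 to 16.8 CPM, overlapped every other group, and all of these values rest on 63 to 444 counts per library.

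*Fabp4* rose by 1.10 in Sham Chow vs. Sham HFD (log2, SE 0.36, adjusted p = 0.0351, edgeR) and was 1.63 higher in RYGB HFD than in Sham Chow (SE 0.37, adjusted p = 0.00994, edgeR), or 3.10-fold. The first of these calls was not held by limma-voom (1.13, adjusted p = 0.0540) and held in 14 of 20 fits without 1 mouse, where the adjusted p reached 0.0886 without Sham HFD replicate 4. The second held in all 20. Sham HFD vs. RYGB HFD gave 0.53 (SE 0.35, adjusted p = 0.324, edgeR), RYGB Chow vs. RYGB HFD 0.89 (SE 0.35, adjusted p = 0.172, edgeR), and Sham Chow vs. RYGB Chow 0.74 (SE 0.37, adjusted p = 0.474, edgeR).

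Of the cell types known for *Fabp4*, macrophage markers were called in some of these contrasts and endothelial markers in none. Of 10 Kupffer cell and macrophage markers 5 rose in Sham Chow vs. Sham HFD, *Cd68*, *Adgre1*, *Cd5l*, *Csf1r* and *Clec4f*. There 21.6% of all tested genes were called in either direction. In Sham Chow vs. RYGB HFD, where 7.67% were called, 4 of them (all but *Adgre1*) rose, and none changed in Sham HFD vs. RYGB HFD. Leaving out 1 mouse gave 2 to 7 and 0 to 8 calls in the former contrasts, with 0 without Sham Chow replicate 5. Their summed level was 154 to 409 CPM in Sham Chow, 358 to 511 in Sham HFD, 308 to 739 in RYGB Chow and 306 to 567 in RYGB HFD. None of 8 endothelial markers was called in any of the 6 contrasts, and their sum was 172 to 298, 238 to 377, 110.0 to 327 and 127 to 355 CPM in the same order. The median log2 fold change of the endothelial markers was 0.50 in Sham Chow vs. Sham HFD and 0.43 in Sham Chow vs. RYGB HFD. For the macrophage markers it was 0.77 and 0.92, and over all tested genes -0.00 and 0.01. In Sham HFD vs. RYGB HFD the medians were -0.08 (endothelial), 0.10 (macrophage) and 0.01 (all tested genes). With scaling by library size alone 1 endothelial marker rose in Sham Chow vs. Sham HFD. The part of either cell type in the *Fabp4* values was not tested.

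Of 6 adipocyte markers, *Adipoq*, *Plin1*, *Lep* and *Retn* were at or near 0 in most mice, while *Lipe* and *Cfd* were not. *Adipoq*, which encodes adiponectin, had 0.870 CPM in Sham HFD replicate 1, 0.839 in Sham HFD replicate 4 and 0.0665 in RYGB HFD replicate 5, and 0 in the other 17 libraries. *Plin1*, a lipid droplet coat protein of adipocytes, had 2.26 CPM in Sham HFD replicate 1 and 0.839 CPM in Sham HFD replicate 4, and *Lep* had 0.959 CPM in Sham HFD replicate 4 only. *Lipe*, the hormone-sensitive lipase, had 15.2 to 30.9 CPM in every mouse. *Cfd*, which encodes the adipokine adipsin, had 0.145 to 4.04 CPM in Sham Chow, 2.68 to 8.07 in Sham HFD, 0 to 0.782 in RYGB Chow and 0.864 to 24.4 in RYGB HFD. Like *Fabp4*, it was called higher in Sham Chow vs. RYGB HFD (2.85, adjusted p = 0.0410, edgeR; 1.92, adjusted p = 0.159, without RYGB HFD replicate 1). This *Cfd* call was lost in 6 of 20 fits without 1 mouse. The part of adipocytes in the *Fabp4* values was not tested. Without Sham HFD replicates 1 and 4, an alternative added after the data had been seen, *Fabp4* in Sham Chow vs. Sham HFD was 0.92 (adjusted p = 0.152, edgeR). The same alternative ended the calls of *Fabp2* in Sham HFD vs. RYGB HFD (-0.76, adjusted p = 0.0577), *Acsl4* in that contrast (0.29, adjusted p = 0.155) and the *Slc27a2* interaction (0.51, adjusted p = 0.0597); it also leaves only 3 mice in Sham HFD.

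The coding sequences of *Fabp4* and *Fabp5*, whose values moved in opposite directions in Sham Chow vs. Sham HFD, are compared below to show how far reads of these related genes can be told apart. The first 150 coding bases of each (GENCODE M21, GRCm38, spliced, base 1 being the A of the start codon) are given 5′ to 3′, and capitals mark bases that are identical in a pairwise alignment of the whole coding sequences.
Fabp4: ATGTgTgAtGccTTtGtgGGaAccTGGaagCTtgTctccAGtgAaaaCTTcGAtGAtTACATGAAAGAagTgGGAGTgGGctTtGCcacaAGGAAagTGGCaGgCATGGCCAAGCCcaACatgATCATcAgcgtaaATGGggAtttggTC
Fabp5: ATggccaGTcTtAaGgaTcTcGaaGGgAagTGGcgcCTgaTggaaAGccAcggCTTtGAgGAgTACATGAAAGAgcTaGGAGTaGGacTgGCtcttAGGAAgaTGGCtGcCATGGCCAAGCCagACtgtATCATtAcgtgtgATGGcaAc

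The alignment had 242 identical bases in 405 columns (59.75%), and the longest run of identical bases was 12, against read lengths of 150. The other pairs among *Fabp1*, *Fabp2*, *Fabp4* and *Fabp5* were 47.64% to 48.45% identical. The annotated pseudogene *Fabp5l2* had 0 counts in all 20 libraries.

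Per kilobase of the longest coding transcript (RPKM), *Fabp5* exceeded *Fabp4* in all 5 Sham Chow mice and all 5 RYGB Chow mice, and *Fabp4* exceeded *Fabp5* in all 5 Sham HFD mice. The ratio of *Fabp5* to *Fabp4* RPKM was 5.21 ± 2.61 in Sham Chow, 0.285 ± 0.0762 in Sham HFD, 1.80 ± 0.981 in RYGB Chow and 1.19 ± 0.773 in RYGB HFD (SD, n = 5). The Sham HFD ratios, 0.158 to 0.358, lay below those of every other mouse, of which the lowest was 0.619. With the union of all exons as the length, the ratio ran from 0.218 to 0.497 in Sham HFD and from 3.82 to 11.7 in Sham Chow.

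**Figure D3:**
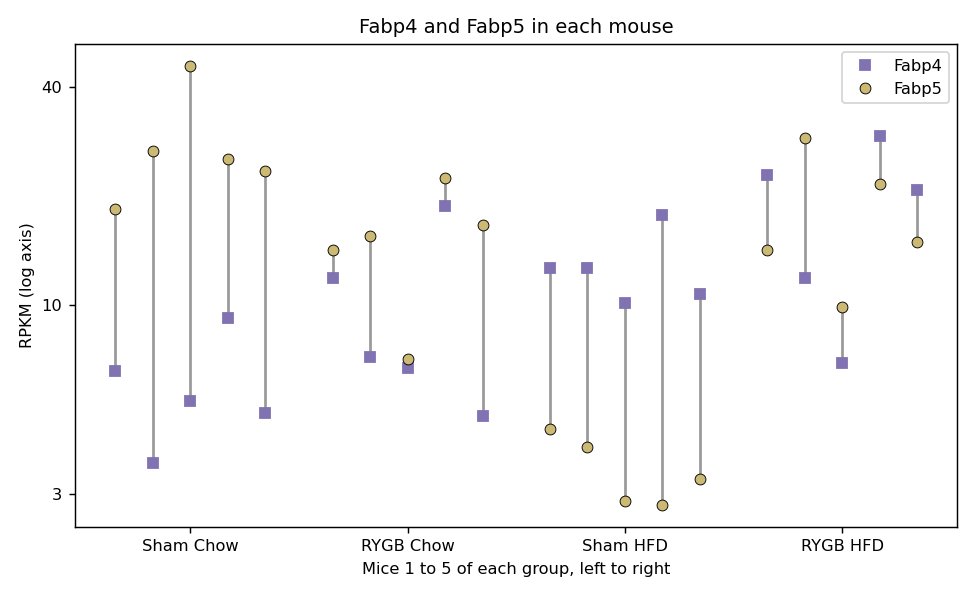
RPKM of *Fabp4* (squares) and *Fabp5* (circles) in each mouse on a log axis, joined by a line per mouse. The order of the 2 genes is *Fabp5* over *Fabp4* in all 10 chow-fed mice and the opposite in all 5 Sham HFD mice, and both orders occur in RYGB HFD.

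Among the activating enzymes, *Acsl4* (ENSMUSG00000031278, chrX:142317993-142390535, minus strand) encodes the acyl-CoA synthetase that prefers arachidonic acid and other polyunsaturated fatty acids. The Sham HFD mice had 48.5, 47.7, 49.3, 37.1 and 52.3 CPM and the RYGB HFD mice 71.5, 69.0, 56.7, 53.9 and 55.6 CPM, without overlap. Sham Chow, at 55.9 ± 10.1 CPM, and RYGB Chow, at 57.6 ± 4.62 CPM, overlapped both. *Acsl4* was 0.38 higher in RYGB HFD than in Sham HFD (log2, SE 0.12, adjusted p = 0.0271, edgeR), or 1.31-fold. The call was lost with scaling by library size alone (0.29, adjusted p = 0.101) and without Sham HFD replicate 4, RYGB HFD replicate 1 or RYGB HFD replicate 2 (adjusted p 0.0785, 0.0746 and 0.0797). In Sham Chow vs. Sham HFD the value was -0.25 (SE 0.12, adjusted p = 0.128, edgeR).

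*Acsl5* (ENSMUSG00000024981, chr19:55251938-55297720, plus strand), an acyl-CoA synthetase of mitochondria and endoplasmic reticulum, had the highest length-scaled level of the 3 synthetases and stood at 377 ± 22.6 CPM in Sham Chow, 334 ± 37.1 in Sham HFD, 349.6 ± 81.1 in RYGB Chow and 317 ± 18.8 in RYGB HFD. No contrast was called. In Sham Chow vs. RYGB HFD, 355 to 402 CPM against 302 to 349.6 CPM, the groups did not overlap, as held for 7.24% of all tested genes, and the log2 fold change was -0.25 (SE 0.12, adjusted p = 0.219, edgeR). RYGB Chow was the most variable group, with replicates 3 and 4 at 235 and 294 CPM and the other mice at 395 to 423 CPM. *Zdhhc6* overlaps *Acsl5* on the opposite strand.

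*Acsl3* (ENSMUSG00000032883, chr1:78657825-78707743, plus strand), which is known from the endoplasmic reticulum and nascent lipid droplets, had 19.0 ± 2.97 CPM in Sham Chow, 22.3 ± 7.84 in Sham HFD, 18.9 ± 4.76 in RYGB Chow and 24.7 ± 5.77 in RYGB HFD. Replicate 5 of Sham HFD reached 35.5 CPM and the other 4 lay between 16.8 and 23.7 CPM. No contrast was called, and the log2 fold changes lay between -0.01 and 0.39. *Utp14b* overlaps *Acsl3* on the same strand, so its reads could have been split or left out in the counting.

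The 2 groups did not overlap for 4 of the 10 members in Sham Chow vs. Sham HFD, against 16.5% of all tested genes, and for 6 of 10 in Sham HFD vs. RYGB HFD, against 14.7%. Without overlap, the two-sided exact permutation test of 5 against 5 mice always gives 0.00794, the smallest p that 252 splits allow. That was 0.0331 adjusted over the 50 tests. For these genes the test restates the missing overlap and is no further evidence. By RPKM in Sham Chow the order of the levels was *Fabp1*, *Slc27a2*, *Acsl5*, *Fabp2*, *Cd36*, *Fabp5*, *Acsl4*, *Slc27a4*, *Fabp4* and *Acsl3*. In Sham HFD *Fabp2* and *Cd36* stood before *Acsl5*, and *Fabp5* came last. With the union of exons as the length, the places below *Cd36* and *Acsl5* changed, but *Fabp5* was again last in Sham HFD.

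The same families hold 9 further genes, of which 4 passed the filter. None of these changed in any contrast. *Acsl1*, the main hepatic long-chain acyl-CoA synthetase, had 1555 ± 296 CPM in Sham Chow, 1231 ± 62.9 in Sham HFD, 1486 ± 207 in RYGB Chow and 1466 ± 209 in RYGB HFD, with a log2 fold change of -0.34 (SE 0.12, adjusted p = 0.0545, edgeR) in Sham Chow vs. Sham HFD. *Slc27a5*, the bile acid-CoA ligase of hepatocytes, gave -0.19 (SE 0.11, adjusted p = 0.213) and *Slc27a1* -0.09 (SE 0.15, adjusted p = 0.700, edgeR) there. *Fabp7*, the brain-type FABP, was at 1.02 to 5.32 CPM over all mice and gave 0.74 (SE 0.37, adjusted p = 0.161, edgeR).

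*Slc27a3*, *Slc27a6* and *Acsl6* stayed at or below 1.40 CPM, and *Fabp6*, the ileal bile acid-binding protein, had no count. *Fabp3*, the FABP of heart and skeletal muscle, was at or below 0.509 CPM in 19 mice but reached 28.0 CPM in Sham HFD replicate 4, 1 of the 2 Sham HFD mice with *Adipoq* counts. That mouse also had 32.2 CPM of *Des*, a gene on the stellate cell list below, against 3.98 to 5.22 CPM in the rest of its group. The source of these transcripts was not tested.

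Of 24 genes that handle fatty acyl-CoA once it is formed, all were tested. In Sham Chow vs. Sham HFD 6 changed, against 21.6% of all tested genes, and in Sham HFD vs. RYGB HFD 6, against 16.4%. There were 4 that rose and 2 that fell in Sham Chow vs. Sham HFD, with a list median of 0.04 against -0.00 over all genes. In Sham HFD vs. RYGB HFD 2 were higher and 4 lower, with a median of -0.10 against 0.01. Scaling by library size alone gave 5 and 2 in the former and 1 and 7 in the latter. *Acsm1*, a medium-chain acyl-CoA synthetase, fell by 0.42 in the former contrast and was 0.49 higher in the latter (adjusted p = 8.2e-04 and 2.4e-04, edgeR). It was the list's only gene called for the interaction (0.48, adjusted p = 0.0158).

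Thioesterases, which cleave acyl-CoA again, were on both sides. The cytosolic *Acot1* fell by 1.65 in Sham Chow vs. Sham HFD and was 1.03 higher in Sham HFD vs. RYGB HFD. Its call in the latter was lost by limma-voom (adjusted p = 0.0527), by edgeR with scaling by library size alone (adjusted p = 0.0546) and in 6 of 20 fits without 1 mouse. *Acot11* rose by 1.08 and *Acot9* by 0.74 in the former, and in the latter these were lower by log2 fold changes of -1.13 and -0.78. *Acbd4*, an acyl-CoA-binding protein, rose by 0.28 in the former contrast and was lower in the latter (-0.51), and *Acot13* was called only in the latter, at -0.37. Without 1 mouse the *Acbd4* call in the former was lost in 5 of 20 fits and the *Acot13* call in 3. *Cpt1a*, which commits acyl groups to mitochondrial oxidation, gave 0.08 and 0.10, neither called. No gene of this list changed in Sham Chow vs. RYGB Chow, RYGB Chow vs. RYGB HFD or Sham Chow vs. RYGB HFD.

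Among 13 PPARs, partner receptors and coregulators, 3 changed in Sham Chow vs. Sham HFD, against 21.6% of all tested genes. In Sham HFD vs. RYGB HFD 3 changed, against 16.4%. The list medians were -0.05 and 0.16. With scaling by library size alone 2 rose and none fell in the former and 2 were lower in the latter, with medians of 0.08 and 0.07. *Pparg*, the lipogenic PPAR that is known to induce *Cd36*, had 14.5 ± 3.40 CPM in Sham Chow, 22.2 ± 1.96 in Sham HFD, 13.8 ± 0.429 in RYGB Chow and 14.4 ± 3.11 in RYGB HFD. It rose by 0.62 (SE 0.15, adjusted p = 0.0057, edgeR) and was lower by a log2 fold change of -0.61 after bypass on HFD (SE 0.15, adjusted p = 0.0066, edgeR), and every Sham HFD mouse, from 19.8 CPM, was above every other mouse, up to 18.1 CPM. The interaction for *Pparg*, -0.55 (adjusted p = 0.136, edgeR), was not called.

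*Hnf4a*, a hepatocyte regulator, fell by 0.43 and was then 0.49 higher (adjusted p = 0.0267 and 0.0166, edgeR). *Rxrb* fell by 0.29 in the former contrast and *Rxra* was 0.29 higher in the latter (adjusted p = 0.0216 and 0.0245, edgeR). *Ppara*, the receptor of hepatic fatty acid oxidation, gave 0.54 (SE 0.21, adjusted p = 0.0643) and -0.05 (SE 0.21, adjusted p = 0.904, edgeR). These calls of *Hnf4a*, *Rxrb* and *Rxra* were lost with scaling by library size alone. Without 1 mouse *Hnf4a* lost its call in 5 of 20 fits in the former contrast and in 1 in the latter. *Rxrb* lost its call in 2 such fits and *Rxra* in 4. No gene of this list changed in the other contrasts.

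Of 15 genes linked to hepatic steatosis, 8 rose in Sham Chow vs. Sham HFD, against 10.9% of all tested genes, and none fell. The list median was 1.50. In Sham HFD vs. RYGB HFD 10 were lower, against 7.9% of all tested genes, and none higher, with a median of -1.24. The list was drawn up with earlier results of these samples known and is no independent evidence of a direction. *Anxa2*, a membrane-binding annexin, had 8.03 ± 2.44 CPM in Sham Chow and 54.6 ± 10.9 in Sham HFD, and *Apoa4*, an apolipoprotein, 65.2 ± 14.0 and 874 ± 341 CPM. The interaction was called and negative for 5 of the 15, *Anxa2*, *Apoa4*, *Ly6d*, *Vldlr* and *Cd63*.

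*Mogat1*, a monoacylglycerol acyltransferase, rose by 2.75 in Sham Chow vs. Sham HFD (adjusted p = 0.00116, edgeR). In Sham HFD vs. RYGB HFD it was lower by a log2 fold change of -3.86 (adjusted p = 1.4e-04, edgeR). *Vldlr*, a lipoprotein receptor, rose by 1.30 in the former contrast and was lower by a log2 fold change of -1.77 in the latter. *Lpl*, named here after its values were seen, was the 1 gene of the list that changed in Sham Chow vs. RYGB HFD (1.18, adjusted p = 0.0441, edgeR). This call was lost with scaling by library size alone (1.19, adjusted p = 0.0501) and in 11 of 20 fits without 1 mouse. None of the 15 changed in Sham Chow vs. RYGB Chow or RYGB Chow vs. RYGB HFD.

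**Figure D4:**
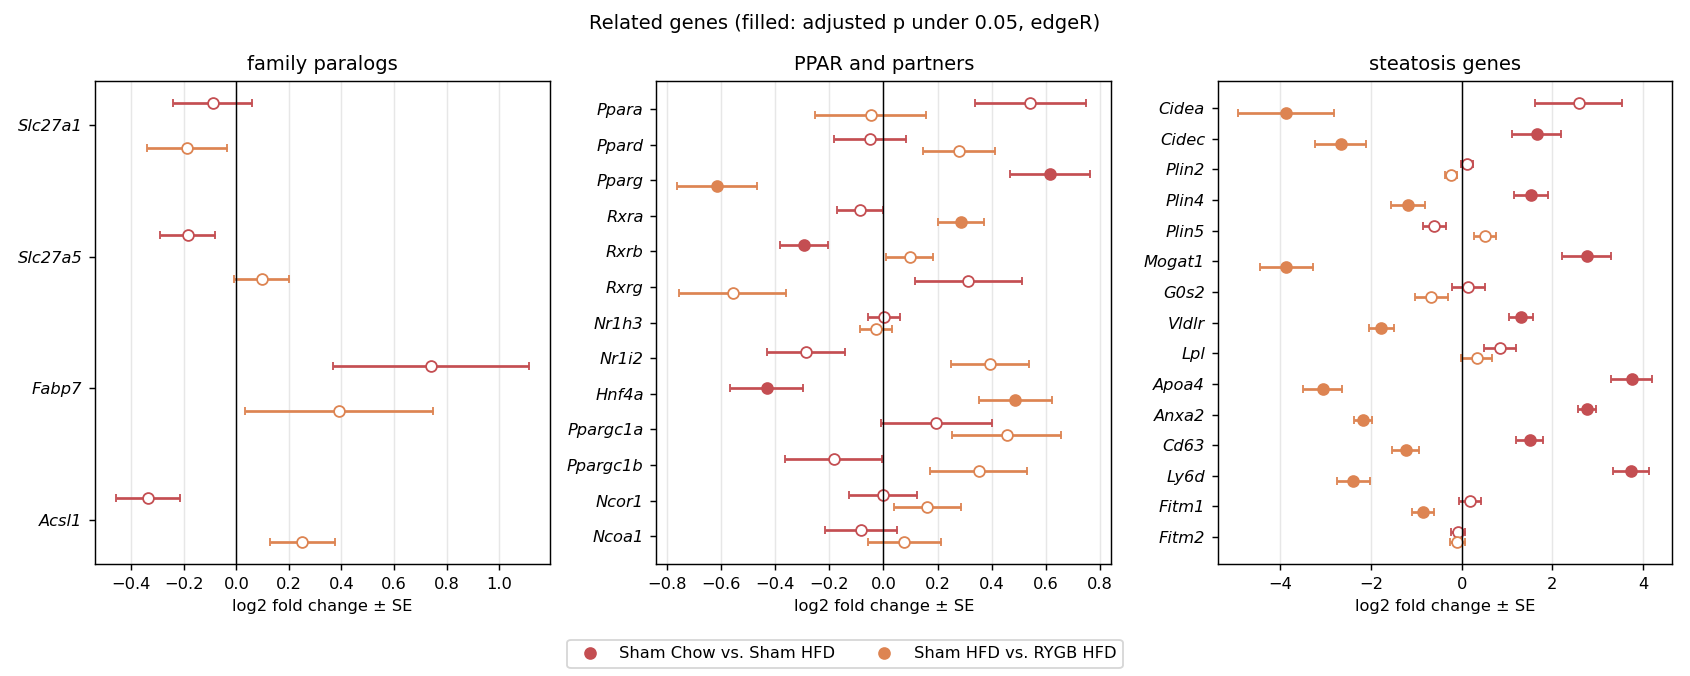
Log2 fold change with its SE of the tested family paralogs, the PPARs with partners and the steatosis genes in Sham Chow vs. Sham HFD and Sham HFD vs. RYGB HFD; filled points passed an adjusted p of 0.05. No paralog is filled, *Pparg* is filled on both sides of 0, and the filled steatosis genes lie above 0 in the first contrast and below 0 in the second.

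Markers of other liver cells also differed in the contrasts with Sham HFD. Of all tested genes 21.6% were called in Sham Chow vs. Sham HFD and 16.4% in Sham HFD vs. RYGB HFD. All 7 stellate cell markers were called higher in Sham Chow vs. Sham HFD. One of them, *Des*, rested on Sham HFD replicate 4, at 32.2 CPM against 3.98 to 5.22 CPM in the other 4 mice, and went from 1.23 to 0.14 (adjusted p = 0.586, edgeR) without it. Of the 7, 3 were lower in Sham HFD vs. RYGB HFD, and 1 to 3 were called there without 1 mouse. The stellate cell markers summed to 132 to 221 CPM in Sham Chow, 272 to 335 in Sham HFD, 178 to 249 in RYGB Chow and 190.2 to 291 in RYGB HFD. Of 5 markers of lipid-associated macrophages 4, *Spp1*, *Gpnmb*, *Itgax* and *Trem2*, rose and 1, *Cd9*, fell in Sham Chow vs. Sham HFD. In Sham HFD vs. RYGB HFD 1, *Itgax*, was lower. In Sham Chow vs. Sham HFD the calls of *Trem2* and *Itgax* were lost in 10 and 4 of 20 fits without 1 mouse. The *Itgax* call in Sham HFD vs. RYGB HFD was lost in 10 such fits and by limma-voom (adjusted p = 0.0624). Of 7 hepatocyte markers 3 fell in the former contrast, and 4 were higher and 1 lower in the latter. Their sums were 77552 to 97857 CPM in Sham Chow, 66857 to 79352 in Sham HFD, 70103 to 117726 in RYGB Chow and 93783 to 112732 in RYGB HFD.

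Of 5 cholangiocyte markers 2 were tested, and *Spp1*, the same gene as on the lipid-associated macrophage list, rose in Sham Chow vs. Sham HFD. None of 4 red cell genes was called. Of 6 adipocyte markers 2 were tested. *Cfd* was called higher in RYGB HFD than in Sham Chow, as given above, and than in RYGB Chow (log2 fold change 4.32, edgeR). By limma-voom neither was called (adjusted p = 0.141 over Sham Chow and 0.133 over RYGB Chow). The same held for edgeR fits of the 2 groups only (adjusted p = 0.101 and 0.0527). The part of these cell types in the members' differences was not tested.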

How the data were processed

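The authors prepared stranded poly-A libraries (dUTP, paired-end 150 bases) from the liver of each mouse, trimmed reads with Trimmomatic 0.36, checked them with FastQC, aligned them to mm10 with HISAT2 2.1.0 and deposited raw read counts per Ensembl gene from featureCounts 1.5.0-p3. The strand setting, annotation release and handling of multi-mapping reads are not given in the sources used here, and no molecular identifiers were used. Symbols and positions came from GENCODE M21 (54495 of 54532 IDs matched), promoters from RefSeq.

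The deposited counts were analysed with edgeR 4.0.16 in R 4.3.3: genes reaching a CPM of 2 in 3 or more mice, TMM factors, 1 quasi-likelihood model of the 4 groups, Benjamini-Hochberg adjustment over 12289 genes and a threshold of 0.05. The procedure was tested on simulated data. DESeq2 1.42.0, RLE factors, limma-voom (limma 3.58.1), scaling by library size alone, no filter, a CPM of at least 5, fits of the 2 groups only, a replicate block and leaving out each mouse were the alternatives, along with leaving out the 2 Sham HFD mice with adipocyte transcripts, which was added after the data were seen. Permutation tests used log2(CPM + 0.5).

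The members and gene lists were chosen with earlier results of these data known. Named were all 10 members, all family paralogs, up to 6 called genes per list by smallest adjusted p, and for each member the 3 genes with the highest Pearson r. From the acyl-CoA, PPAR and steatosis lists, *Cpt1a* and *Ppara*, called in no contrast, and *Lpl* were named outside this rule. Each library is a separate mouse. The labels name no sequencing batch, so no within-batch value could be given.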

Additional observations from a re-analysis of the deposited data

Results flagged for a closer look

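The effect of HFD differed between sham and RYGB mice for 3 of the 10 genes, by the interaction term of the edgeR model with Benjamini-Hochberg adjustment over all genes. For *Fabp5* the interaction was 3.24 on the log2 scale (adjusted p = 2.39e-04), with diet effects of -3.00 in sham mice and 0.24 in RYGB mice. For *Cd36* it was -1.70 (adjusted p = 0.00549), with diet effects of 1.45 and -0.25. For *Slc27a2* it was 0.48 (adjusted p = 0.0309), with diet effects of -0.21 and 0.27, neither of which was called.

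In RYGB HFD the highest *Acsl5* level, 349.6 CPM in replicate 3, stood apart from the other mice at 302 to 315 CPM by Dixon's criterion. It was the 1 such mouse in 40 groups of 5 mice, and chance alone marks about 1 in 20 groups.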

How the results depend on the processing

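Of the single-gene values under the alternatives, 1644 kept their direction and their side of the threshold, 26 lost a call, 7 gained one and 53 turned sign; every one that turned sign belonged to a value not called in the report (adjusted p above 0.68). Over all genes, DESeq2 called 92 against 7 in Sham Chow vs. RYGB Chow and 751 against 448 in RYGB Chow vs. RYGB HFD. Leaving out 1 mouse moved the number called over all genes from 7 to 0 (without Sham Chow replicate 3 or 4) to 15 (without RYGB Chow replicate 5) in Sham Chow vs. RYGB Chow, from 448 to as few as 244 (without RYGB HFD replicate 3) in RYGB Chow vs. RYGB HFD, from 943 to as few as 424 (without Sham Chow replicate 5) in Sham Chow vs. RYGB HFD and from 622 to as few as 377 (without Sham HFD replicate 3) for the interaction. The members' shares stand beside backgrounds that move this far. The calls in the lists moved too: 4 to 7 of the stellate cell markers, 4 to 7 acyl-CoA genes, 1 to 4 PPARs and partners and 7 to 10 steatosis genes were called in Sham Chow vs. Sham HFD. The number of members changed in RYGB Chow vs. RYGB HFD went from 0 to 1 with DESeq2. Leaving out 1 mouse moved the number in Sham Chow vs. RYGB HFD between 1 and 2 and for the interaction between 2 and 5; the highest values, 2 and 5, came without Sham Chow replicate 2, and the cause was not tested. The replicate numbers of the labels did not pair the mice: same-numbered mice had a median correlation of deviations of -0.01 (30 pairs, 5 over 0.1), and 2 of 20 mice correlated best with their own number. With a replicate block, RYGB Chow vs. RYGB HFD had 1 member changed in place of 0 (*Fabp4*, 0.91, adjusted p = 0.0419), and the other counts kept within 1.5 times.

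Values that turned sign, all uncalled, were as follows on the log2 scale. Scaling by library size alone gave 0.0436 for *Acsl3* in Sham Chow vs. RYGB Chow, 0.0527 for *Fabp1* in Sham Chow vs. Sham HFD and -0.0911 for the *Acsl5* interaction. Without Sham HFD replicates 1 and 4 the values were -0.0447 for *Acsl3* in Sham HFD vs. RYGB HFD, 0.0276 for *Fabp1* in Sham Chow vs. Sham HFD, -0.0378 for the *Acsl3* interaction and -0.0776 for that of *Acsl5*. *Slc27a4* in Sham Chow vs. RYGB HFD, at 0.00103, became -0.00662 with DESeq2, -0.00600 with RLE factors, -0.0172 without the filter, -0.00295 with those groups alone and -0.00313 without Sham HFD replicates 1 and 4. Leaving out 1 mouse gave, in Sham Chow vs. RYGB Chow, -0.00615 to 0.41 for *Cd36*, -0.13 to 0.00372 for *Slc27a2*, -0.0337 to 0.0966 for *Slc27a4*, -0.0856 to 0.12 for *Fabp1*, -0.25 to 0.15 for *Fabp2*, -0.0854 to 0.0923 for *Acsl3*, -0.0122 to 0.13 for *Acsl4* and -0.18 to 0.00634 for *Acsl5*. It gave -0.21 to 0.0441 for *Fabp1* in Sham HFD vs. RYGB HFD, and in RYGB Chow vs. RYGB HFD -0.0652 to 0.0126 for *Slc27a4* and -0.00966 to 0.43 for *Fabp5*. The range in Sham Chow vs. RYGB HFD was -0.25 to 0.15 for *Cd36* and -0.0637 to 0.0694 for *Slc27a4*, and for the interaction -0.25 to 0.0448 for *Fabp1*, -0.45 to 0.16 for *Fabp4* and -0.0898 to 0.11 for *Acsl5*. The cause of these turns was not tested.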

Other observations

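For each member the tested genes outside the set with the most similar levels over the 20 mice are given as a description. Pearson's r was taken on log2(CPM + 0.5), and the points share the groups, the libraries and their depth. *Cd36* was closest to *Slc22a27* (0.947), an organic anion transporter of hepatocytes, *Psap* (0.938), which encodes the saposin precursor of lysosomes, and *Cyp2c38* (0.936). *Fabp2* was closest to *Aldh3a2* (0.904), the fatty aldehyde dehydrogenase, *Apoa4* (0.883) and *Lamb3* (0.882). *Fabp5* was closest to *Serpina3k* (0.908), *Adgrf1* (0.905) and *Gm3839* (0.905), and *Slc27a2* to *Tardbp* (0.894), *Lcat* (0.815) and *Hyal2* (0.787).

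*Fabp4* was closest to *Arap3* (0.868), *Inhbb* (0.866) and *Btnl9* (0.859), and *Slc27a4* to *Mcm2* (0.857), *Atp9a* (0.839) and *Ywhah* (0.829). The members with few or no calls had *Atp6v1f* (0.834), *Edf1* (0.831) and *Npepl1* (0.819) nearest to *Fabp1*, *Fign* (0.771), *Mvd* (0.733) and *Dntt* (0.731) nearest to *Acsl3*, *Arhgap10* (0.861), *Gm8893* (0.791) and *Sec23ip* (0.780) nearest to *Acsl4*, and *Aldh1a7* (0.860), *Cyb5r3* (0.839) and *Uqcrc2* (0.836) nearest to *Acsl5*.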
